A study of Mus musculus with 6 samples.

Results

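Chemerin is a secreted protein encoded by Rarres2. This account covers Rarres2 and the genes of its receptors Cmklr1 and Ccrl2 in single nuclei of mouse white adipose tissue. The 3 genes were picked by symbol among the 56980 genes of the count tables, of which 41598 had at least 1 UMI (unique molecular identifier, 1 per captured RNA molecule) in a retained nucleus. Across 27074 nuclei, Rarres2 had 4839 UMIs, Cmklr1 had 3634 and Ccrl2 had 252. RNA of single nuclei (snRNA-seq) was sequenced from female C57BL/6J mice, for which the labels give no transgene and no treatment. There were 2 libraries per group, 6 in all: subcutaneous (inguinal) fat (SAT) of mice aged 2 months, SAT of mice aged 24 months, and visceral (gonadal) fat (VAT) of mice aged 24 months. The labels gave 24 months for the aged animals, whereas the series' design text gave a somewhat older age, and the label is used here. The sources used here do not say which SAT and VAT libraries came from the same animals, so the p-values measure the spread between libraries. VAT at 2 months was not analysed here.

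Chemerin is released as an inactive precursor, and serine and cysteine proteases trim its C-terminus to yield the active form. The active protein attracts macrophages, plasmacytoid dendritic cells and NK cells through CMKLR1, a G protein-coupled receptor, and it is regarded as an adipokine because adipose tissue and liver are major sources and because it affects fat cell differentiation. CCRL2 binds chemerin without signalling in the usual way and presents it to neighbouring cells that carry CMKLR1. A further receptor, named Gpr1 in the count tables and Cmklr2 in newer annotation, also binds chemerin and is treated here as a gene of the pathway.

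On GRCm39 (GENCODE vM39), Rarres2 (ENSMUSG00000009281) lies on chromosome 6 from 48546630 to 48549762 on the minus strand. Cmklr1 (ENSMUSG00000042190) occupies 113750358 to 113788509 of chromosome 5, and Ccrl2 (ENSMUSG00000043953) occupies 110883554 to 110886591 of chromosome 9, both also on the minus strand. The 3′ part of Rarres2 overlaps Lrrc61 on the opposite strand over 1027 bases, and 931 of these are exonic in both genes, which is 31.9% of the exonic bases of Rarres2. Whether counting used the strand is not given in the sources used here, so reads of the shared stretch could belong to either gene. Lrrc61 itself was low, with 22.1 and 13.4 CPM (UMIs per 1000000 UMIs of the class) in adipocyte nuclei of SAT at 2 months and 4.83 and 7.66 CPM at 24 months. The non-coding gene Gm15736 lies within Cmklr1 on the opposite strand but shares 0 exonic bases with it.

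The libraries held 8061862 to 16226690 UMIs in 6158 to 11341 barcodes, and 2490 to 5776 nuclei per library passed the thresholds that the study states, numbers that differ from those it gives after filtering, with a median of 1380 to 1878 UMIs. Pairs of libraries shared 5 to 19 barcodes of retained nuclei. The labels name the cell type as adipocytes, yet 7176 of 27074 nuclei fell into adipocyte clusters and the remainder into other classes. These classes were rebuilt from marker genes, without the 3 genes among the clustering genes, and the adipocyte, fibro-adipogenic progenitor (FAP), macrophage and blood endothelial classes held every gene of their marker list in all 6 libraries. The second VAT library stood apart: it held 163 adipocyte nuclei, 301 nuclei with ovary or oviduct markers and 157 multiciliated nuclei. Of the latter 2 classes, the first aged SAT library also held 17 and 19 nuclei. Mesothelial nuclei were found in VAT alone, with 227 and 1623 nuclei and 7 of 7 markers in both libraries. In SAT, 21 to 52 nuclei per library sat in the same clusters but held UMIs of at most 1 of the 7 markers, and they were left unnamed. RNA of adipocytes was present in other classes, and where it moved with a result its level is given as the summed CPM of 8 adipocyte markers, which was 11449.6 to 14348 CPM in adipocyte nuclei.

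Rarres2, the gene of the ligand, had its highest class mean in FAPs, the mesenchymal progenitors that can become adipocytes. Its level there was 374 and 299.6 CPM in SAT at 2 months, 435 and 517 CPM in SAT at 24 months, and 273 and 357 CPM in VAT at 24 months. The mean over the 6 libraries was 376 ± 89.8 CPM (SD, n = 6). FAPs exceeded the adipocytes of the same library in 6 of 6 libraries, by 3.21 to 20.6 times, and they exceeded T cells in the 5 libraries with enough T cells, by 25.4 to 189 times. The values of the 3 groups of FAPs lay in 1 range, with the aged SAT libraries at its upper end.

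Rarres2 UMIs were detected in 41.6%, 31.6%, 37.0%, 44.3%, 29.8% and 32.4% of FAP nuclei (young SAT, aged SAT and aged VAT in turn, the order used wherever 6 values follow each other). With each nucleus thinned to 1000 UMIs, the shares were 28.1%, 21.3%, 27.7%, 35.3%, 21.7% and 24.3%. In T cell nuclei, which should lack the gene, the share was 0.705% and 0.672% in SAT at 2 months, 0.376% and 0% in SAT at 24 months, and 1.81% in the VAT library with enough of them. The 0% stems from 199 nuclei and allows a level of up to 9.91 CPM (3 counts of the total). Median depth was 1293 to 1640 UMIs in FAP nuclei and 1207 to 1451 UMIs in T cell nuclei. The FAP share was above this background in each of the 5 libraries where both could be measured. Shares and this upper limit carry counting error only.

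Within the FAPs, both clusters carried Rarres2. The cluster led by Lama2, Col3a1 and Dcn, genes of the basement membrane and collagen matrix, had 429, 228, 551, 541, 256 and 295 CPM in the 6 libraries. The cluster led by Pi16 and Fbn1, a progenitor marker and the gene of fibrillin-1, had 258, 359, 434, 291 and 406 CPM in the 5 libraries with at least 20 such nuclei. Neither cluster was the higher one throughout, and their ranges overlapped. The summed adipocyte markers in FAPs were 375 to 1548 CPM. If Rarres2 accompanied these markers in the proportion seen in adipocytes, it would amount to 0.564 to 18.4 CPM, beside measured levels of 273 to 517 CPM. Without FAP nuclei that held an Adipoq, Plin1 or Cidec UMI, Rarres2 was 412, 276, 438, 601, 260.0 and 369 CPM. The part of adipocyte RNA in the FAP level was not tested.

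In mesothelial nuclei of VAT, the lining cells of visceral organs, Rarres2 reached 474 and 192 CPM, above the FAPs of the first VAT library and below those of the second. These nuclei held the summed mesothelial markers at 4378 and 3832 CPM and the summed FAP markers at 7732 and 1190.3 CPM. The library with more FAP RNA in this class also had more Rarres2, and the part of that RNA in the result was not tested. By cluster, nuclei led by Il1rapl1 and Sntg1 had 517 and 439 CPM, whereas nuclei led by Upk1b and Plxna4 had 205 and 169 CPM. Mesothelial nuclei held 15.4% and 65.4% of all Rarres2 UMIs of the 2 VAT libraries.

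Next in the order of class means came blood endothelial nuclei with 131, 33.1, 83.7, 307, 182 and 63.4 CPM, then adipocytes, a smooth muscle or pericyte cluster that also held the basal epithelial genes Krt5 and Krt14, epithelial cells, macrophages and conventional dendritic cells. The places of the smooth muscle or pericyte cluster and of epithelial cells rest on VAT, since their means of 41.7 and 36.7 CPM became 27.2 CPM without the first VAT library and 3.75 CPM without the second. The endothelial cluster held much adipocyte RNA, with 1099 to 6975 CPM of the adipocyte markers, and the 2 libraries highest in these markers were also the 2 highest in Rarres2. Without its nuclei that held an Adipoq, Plin1 or Cidec UMI, Rarres2 was 0, 26.2, 39.9, 187, 112 and 34.6 CPM, in some libraries above and in others below the adipocytes. The first leading gene of the cluster was Rgs5, and the smooth muscle or pericyte list came second in it. Mature dendritic cells, B cells and T cells stood last with means of 6.96, 6.52 and 5.14 CPM (4.63 and 2.91 CPM for the first and the last without the second VAT library), and 0 UMIs were counted in NK cells of the 3 libraries that held at least 20 of them. In an exact paired sign-flip permutation test on log2(CPM + 10), two-sided, FAPs exceeded blood endothelial nuclei by 1.69 ± 0.93 (SD, n = 6), in 6 of 6 libraries, with p = 0.0312, the smallest p that 6 libraries allow. After adjustment over the 9 neighbouring pairs this became 0.281, and adjusted p was at least 0.281 for each of the other pairs. With 5 or 6 libraries and 9 pairs, no adjusted p could have fallen below 0.05 for any of the 3 genes, so these adjusted values do not say which neighbours are separate. The plot of levels by class shows each library.

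**Figure D1:**
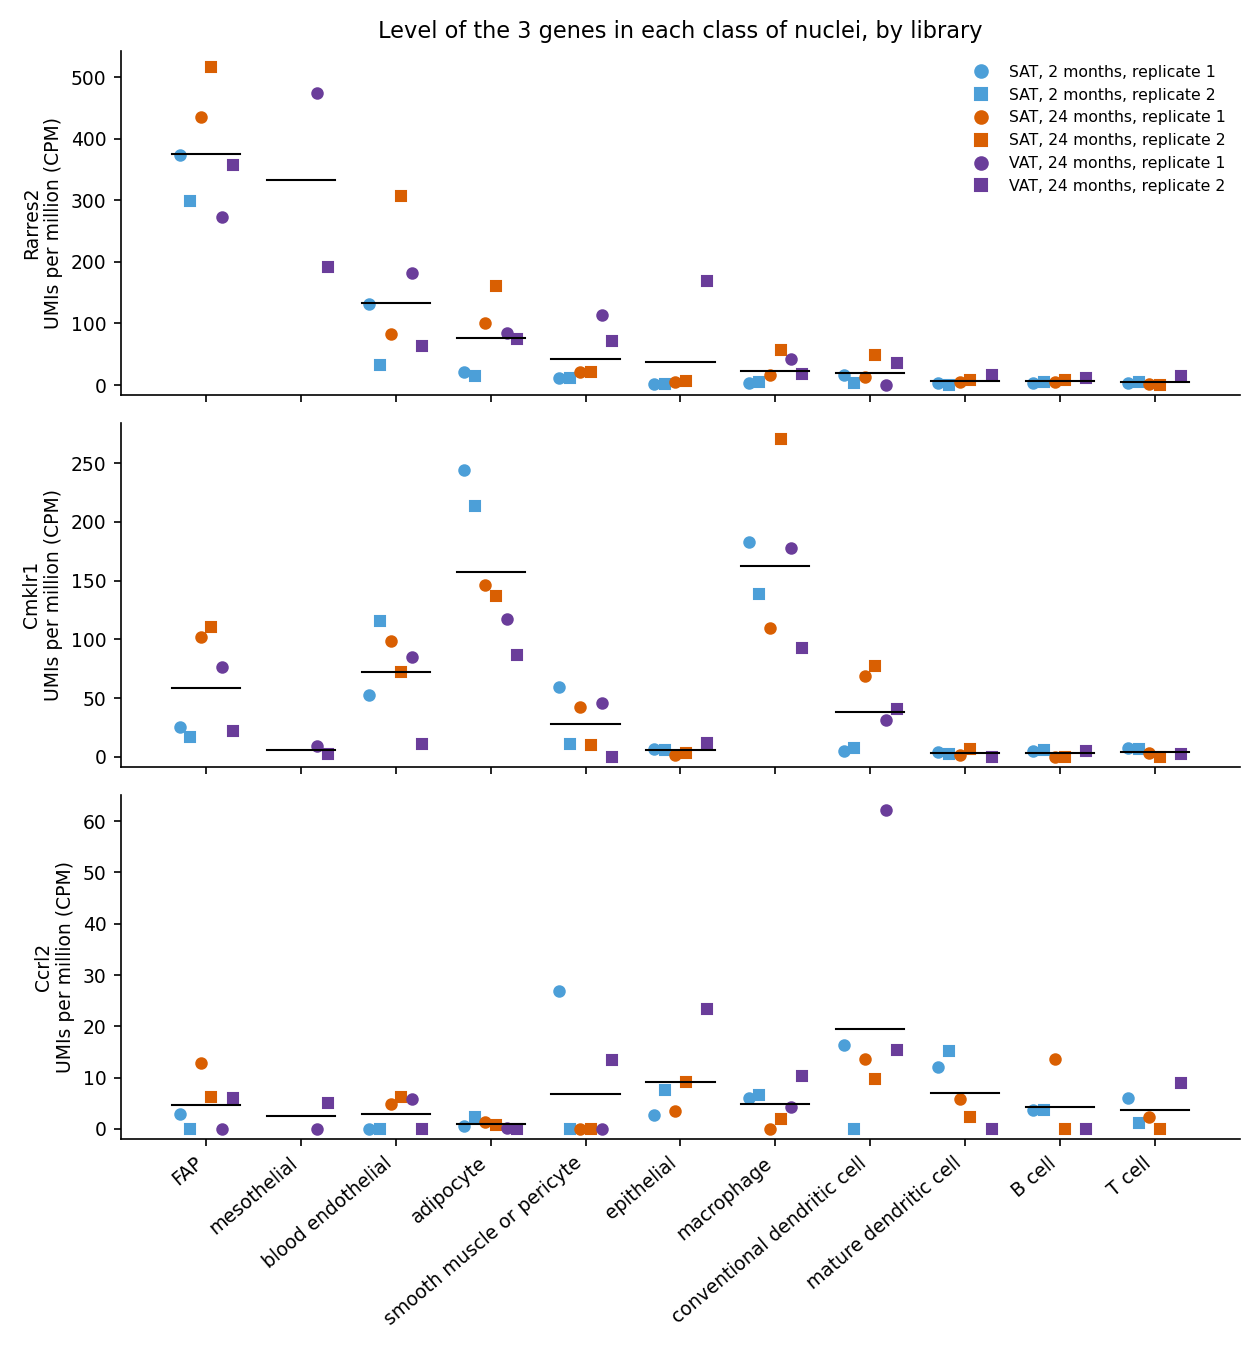
Level of Rarres2 (top), Cmklr1 (middle) and Ccrl2 (bottom) in CPM (linear axis) in each class of nuclei with at least 20 nuclei in a library. Each point is 1 library, colour gives the group, shape gives the replicate and the line is the mean. The highest mean of Rarres2 is in FAPs (273 to 517 CPM), those of Cmklr1 are in macrophages and adipocytes, and Ccrl2 is low throughout with single high libraries.

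In adipocytes of SAT, Rarres2 was 8.12-fold higher at 24 than at 2 months. Its level was 20.5 and 14.5 CPM at 2 months (38 and 13 UMIs), 101 and 161 CPM at 24 months (147 and 882 UMIs), and 83.9 and 75.3 CPM in VAT at 24 months. The 2 age groups of SAT did not overlap, and the lower aged library was above the higher young one by several times. The log2 fold change was 3.02 ± 0.32 (SE; 95% interval 2.32 to 3.72), with an adjusted p of 0.000179 by edgeR's quasi-likelihood test. Of 12971 genes tested in adipocytes, 1797 (13.9%) were called in this contrast, 847 of them upward. Of the 3 genes described here, Rarres2 and Cmklr1 had enough counts in adipocytes to be tested, and Rarres2 was the 1 that was called. Lrrc61, the gene overlapping it, had a log2 fold change of -1.32 (adjusted p = 0.106), opposite in sign.

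Markers of FAPs in the adipocyte nuclei were also higher in the aged libraries. Their summed level was 359.7 and 383 CPM at 2 months, 436 and 1038 CPM at 24 months, and 954 and 1038 CPM in VAT, with 9 of 9 markers above 0 in each SAT library. At the proportion seen in FAPs of the same library, these markers would carry 6.39 and 4.61 CPM of Rarres2 at 2 months, 14.0 and 23.7 CPM at 24 months, and 16.1 and 87.7 CPM in VAT. The SAT values are under the measured levels, whereas that of the second VAT library is above its measured 75.3 CPM. The median mitochondrial share of UMIs in the nuclei of a library was 1.72% and 0.918% in SAT at 2 months against 3.49% and 2.91% at 24 months. The part of FAP RNA and of the mitochondrial share in the result was not tested.

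The share of adipocyte nuclei with a Rarres2 UMI was 3.25% and 1.96% in SAT at 2 months, 16.0% and 26.2% at 24 months, and 17.1% and 13.5% in VAT. At 1000 UMIs per nucleus it was 1.80% and 1.15%, 9.20% and 14.3%, and 7.54% and 6.30%. At either depth, the aged groups lay above the young one without overlap. Median depth was 1588 to 2294 UMIs per adipocyte nucleus.

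In the 5 adipocyte clusters with at least 20 nuclei in each SAT library, both aged values were above both young ones, and the clusters were not tested one by one. In the largest, led by Fam13a, Slc1a3 and Cyp2e1, Rarres2 was 21.2 and 8.58 CPM at 2 months and 105 and 134 CPM at 24 months. In that led by Gm31517 and Adamts5 it was 31.0 and 6.64 against 76.1 and 102 CPM. Nuclei led by the fatty acid synthesis genes Acaca, Acacb and Fasn had 8.64 and 14.5 against 143 and 156 CPM. A smaller group led by Acacb and Slc1a3 had 12.3 and 6.75 against 91.7 and 105 CPM. The cluster led by the adipokine genes Cfd and Adipoq had 28.1 and 100.2 CPM (4 and 6 UMIs) against 183 and 394 CPM. It was the highest of the 5 in each SAT library except the first young one, where that led by Gm31517 and Adamts5 was higher. Another adipocyte cluster, led by Col5a3 and Adrb3, held 58 nuclei, 57 of them in the second VAT library. Leaving out the cluster led by Cfd and Adipoq, in an alternative added after seeing the data, gave a log2 fold change of 2.99 (adjusted p = 0.000179, edgeR).

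**Figure D2:**
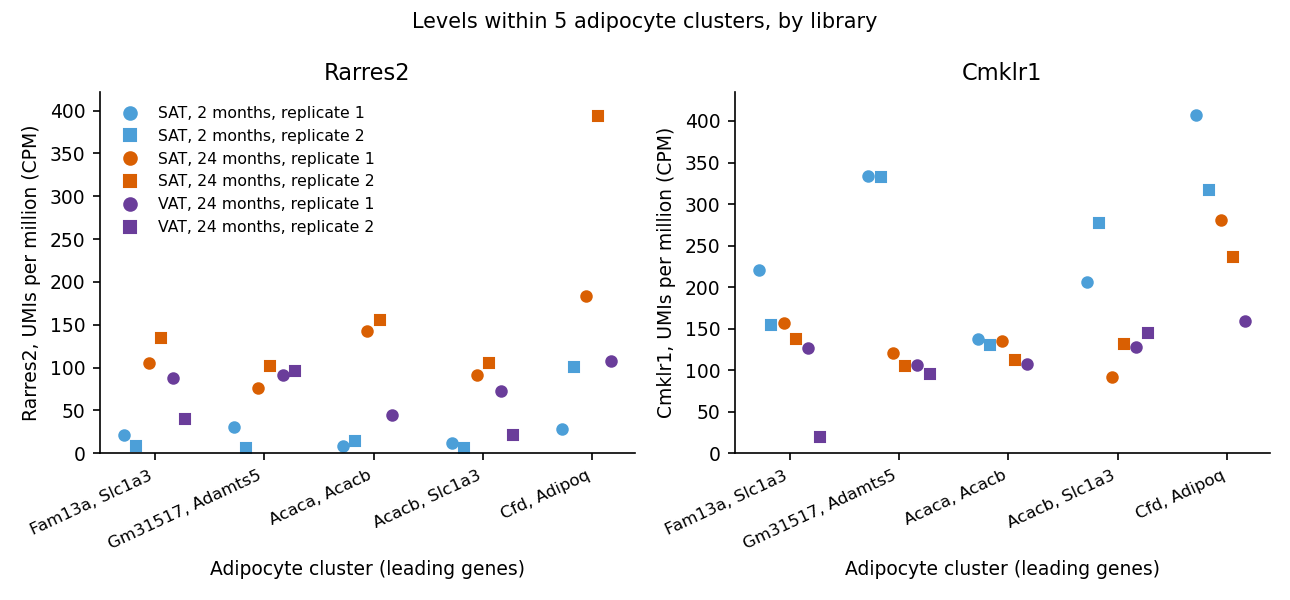
Rarres2 (left) and Cmklr1 (right) in CPM (linear axis) within 5 adipocyte clusters named by their leading genes. Each point is 1 library with at least 20 nuclei of the cluster, colour gives the group and shape the replicate. For Rarres2, both SAT libraries at 24 months lie above both at 2 months in each of the 5 clusters, and the highest value is 394 CPM in the cluster led by Cfd and Adipoq.

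In FAPs, Rarres2 did not pass the test for age. Its log2 fold change was 0.53 ± 0.42 (SE; 95% interval -0.42 to 1.48, adjusted p = 0.679, edgeR). By edgeR, 0 of 8079 genes (0%) were called with age in FAPs, with 843 at an unadjusted p under 0.05, and DESeq2 called 17. The change in FAPs was then set directly against that in adipocytes, in a test of the class by age term added after seeing the data. The change of Rarres2 in FAPs was smaller than in adipocytes by 2.51 ± 0.45 on the log2 scale (FAP minus adipocyte -2.51, adjusted p = 0.00894, edgeR with the library as a block). In this test 106 of 11930 genes (0.889%) were called. Without the first or the second SAT library at 24 months the difference kept its sign, but adjusted p was 0.130 and 0.245.

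The share of the Rarres2 UMIs that each class held was unlike at the 2 ages. In SAT at 2 months, FAPs held 51.8% and 53.2% of all Rarres2 UMIs and adipocytes held 15% and 6.40%. At 24 months, FAPs held 14.8% and 10.0% and adipocytes 63.9% and 52.7%. In the second aged SAT library, blood endothelial nuclei, among which adipocyte RNA was abundant, held a further 502 of 1673 UMIs. These shares also follow the number of nuclei recovered, which was 892 and 509 adipocyte nuclei against 185 and 177 FAP nuclei at 2 months, and 677 and 2111 against 54 and 203 at 24 months.

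**Figure D3:**
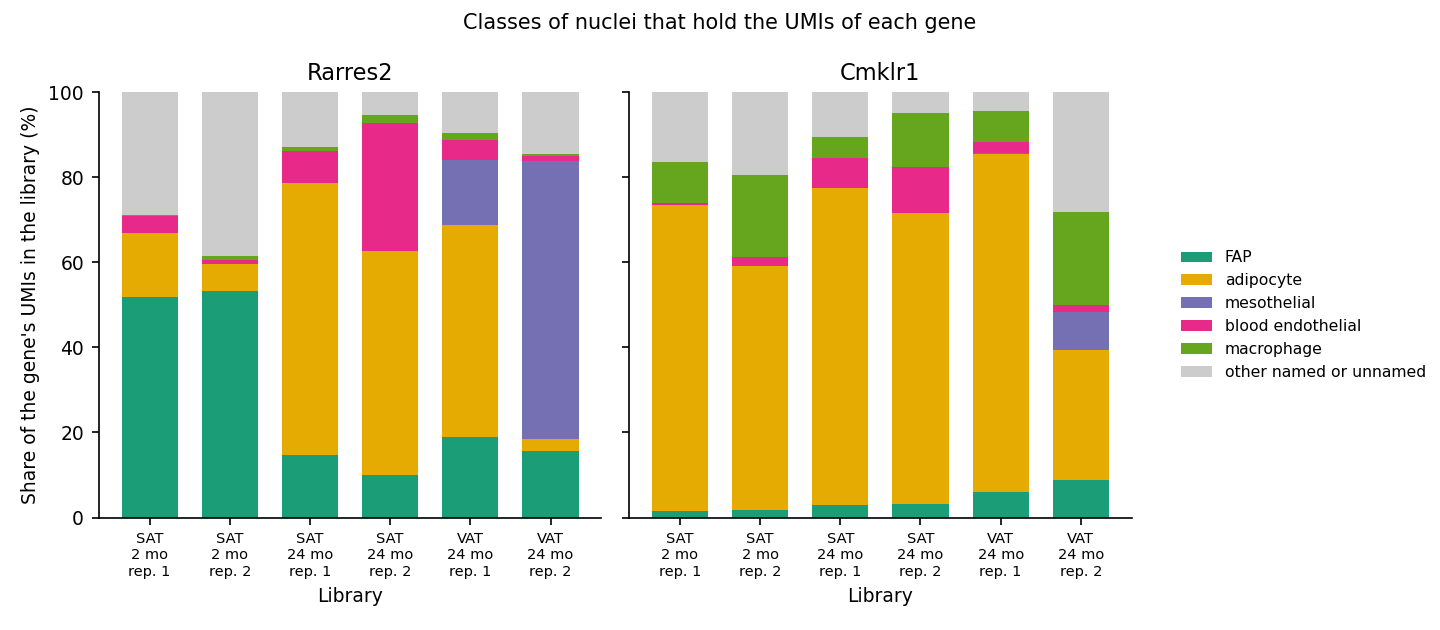
Share of all Rarres2 (left) and Cmklr1 (right) UMIs of each library, in percent, that fell in each class of nuclei (stacked bars, 1 per library). FAPs hold just over 50% of Rarres2 UMIs in SAT at 2 months (51.8% and 53.2%), adipocytes hold most in SAT at 24 months, mesothelial nuclei hold 65.4% in the second VAT library, and adipocytes hold most Cmklr1 UMIs in 5 of 6 libraries.

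Summed over all nuclei, Rarres2 was 25.7 and 20 CPM in SAT at 2 months, 43.7 and 146 CPM in SAT at 24 months, and 124 and 113 CPM in VAT. With age it differed by a log2 fold change of 2.33 ± 0.66 (SE), which did not pass (adjusted p = 0.601, edgeR). In such a sum, fewer nuclei of a type and less RNA per nucleus cannot be told apart.

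In macrophages, Rarres2 rested on few UMIs. It was 3.05 and 4.36 CPM in SAT at 2 months (1 and 2 UMIs), 15.6 and 57.2 CPM at 24 months (2 and 30 UMIs), and 41.8 and 17.2 CPM in VAT. With age this gave a log2 fold change of 3.46 ± 0.94 (SE; adjusted p = 0.242, edgeR), and it was 3.41 with adjusted p = 0.0157 when the filter on low counts was left out. The young values lie under the level of 3 counts, so the fitted fold change is no bound, and it was 1.99 without the second aged SAT library. By edgeR, 0 of 8647 genes (0%) were called in this contrast, with 1037 at an unadjusted p under 0.05, and DESeq2 called 33. The adipocyte markers moved with it: their summed level in macrophages was 1044 and 765 CPM at 2 months, 1439.6 and 3099.7 CPM at 24 months, and 4005 and 551 CPM in VAT, with 8 of 8 markers above 0 in each library. Scaled to these markers, the Rarres2 of adipocytes would amount to 1.78 and 0.971 CPM, 10.6 and 36.8 CPM, and 23.4 and 3.59 CPM. Without macrophage nuclei that held an Adipoq, Plin1 or Cidec UMI, the SAT levels were 4.28 and 5.59 CPM at 2 months and 10.6 and 21.9 CPM at 24 months, from 1 to 5 UMIs. The part of adipocyte RNA in the macrophage value was not tested.

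In blood endothelial nuclei the log2 fold change of Rarres2 with age was 1.48 ± 0.88 (SE; adjusted p = 0.639, edgeR). It was 0.11 without the second aged SAT library, 2.26 without the first and 3.05 without the first young one. With classes taken from the highest marker list it was 7.76. Without nuclei that held an Adipoq, Plin1 or Cidec UMI it was 3.07, from 0 and 1 UMIs in 24 and 25 young nuclei against 5 and 29 UMIs at 24 months. The young values are under the level of 3 counts, so that the 3.07 is no bound. In this class 3 of 6063 genes (0.0495%) were called. Adipocyte markers were highest, at 6975 CPM, in the second aged SAT library, which was also the highest in Rarres2.

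Between the depots at 24 months, Rarres2 was not called in any of the 4 classes. In adipocytes the log2 fold change of VAT against SAT was -0.68 ± 0.28 (SE; adjusted p = 0.667), and 18 of 12971 genes (0.139%) were called by edgeR. It was -0.60 (adjusted p = 0.820) without the second VAT library, -0.37 without the second aged SAT library, -0.26 with the stricter filter on nuclei and -0.40 without the cluster led by Cfd and Adipoq. In the second VAT library, 57 of the 163 adipocyte nuclei and 20 of their 33 Rarres2 UMIs were in the cluster led by Col5a3 and Adrb3, which held 0 nuclei of aged SAT. In FAPs it was -0.58 ± 0.42 (adjusted p = 0.875), where edgeR called 0 of 8079 genes (0%), 480 had an unadjusted p under 0.05 and DESeq2 called 16. Mesothelial markers in FAPs were 12.8 and 6.15 CPM in aged SAT and 243 and 2059 CPM in VAT, where 7 of 7 were above 0, and FAP markers were 13559 and 22602 against 16118 and 4221 CPM. Their part in the FAP value was not tested. In blood endothelial nuclei it was -0.80 ± 0.76 (adjusted p = 0.984), with 0 of 6063 genes (0%) called by edgeR, 178 at an unadjusted p under 0.05 and 3 called by DESeq2. In macrophages it was -0.37 ± 0.71 (adjusted p = 0.995), and edgeR called 2 of 8647 genes (0.0231%). The 95% interval, unadjusted for the number of genes, was -1.28 to -0.07 for adipocytes and -1.53 to 0.36 for FAPs.

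Cmklr1, the gene of the signalling receptor, had its highest class means in macrophages and adipocytes. In macrophages its level was 183 and 139 CPM in SAT at 2 months, 109.5 and 271 CPM in SAT at 24 months, and 178 and 92.9 CPM in VAT. In adipocytes it was 244 and 214 CPM, then 146 and 137 CPM, and 117 and 86.7 CPM. The means of 162 ± 64.0 and 157 ± 59.8 CPM (SD, n = 6) were close, macrophages were the higher of the pair in 3 of 6 libraries, and the paired log2 difference was 0.04 ± 0.60 (SD; exact permutation p = 0.875). The sign of this difference turned under TMM-scaled CPM, where it was -0.41. Adipocytes exceeded blood endothelial nuclei, the class next below, in 6 of 6 libraries, by 1.14 ± 0.78 on the log2 scale (exact permutation p = 0.0312, adjusted 0.281).

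The share of nuclei with a Cmklr1 UMI was 29.0%, 25.3%, 19.6%, 21.9%, 21.8% and 16.0% in adipocytes and 21.6%, 19.4%, 15.5%, 30.3%, 21.7% and 10.4% in macrophages. In T cells it was 1.06% and 0.840% in SAT at 2 months and at most 0.376% in the other libraries with at least 20 T cells. Median depth of the macrophage nuclei was 1376 to 1604 UMIs, near that of T cells. Both classes therefore lay far above this background. Adipocytes held 71.9%, 57.4%, 74.6%, 68.3%, 79.3% and 30.6% of the Cmklr1 UMIs of the libraries, and macrophages held 4.95% to 21.8%.

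Within the macrophages, the cluster led by Mrc1, Retnla and F13a1, genes of resident tissue macrophages, had 269 CPM of Cmklr1 with its nuclei summed over libraries. That led by Spp1 and Gpnmb, genes of lipid-associated macrophages, had 149.8 CPM. Smaller clusters led by Retnla, Mrc1 and Cd163 (169 nuclei), by Retnla, Lyz1 and Fn1 (146 nuclei) and by Saa3 and Prg4 (36 nuclei) had 80.9, 104 and 266 CPM. These rest on 29, 28 and 17 UMIs. The second aged SAT library held 16 of the 28, and 13 nuclei of the first VAT library held 12 of the 17. The cluster led by Mrc1, Retnla and F13a1 exceeded that led by Spp1 and Gpnmb in 4 of the 5 libraries with at least 20 nuclei of both. In the second VAT library it had 82.8 against 113 CPM, and no test was run. Conventional dendritic cells averaged 38.6 ± 30.1 CPM (SD, n = 6). The name is less clear for their cluster led by Fgr and H2-Eb1, which had 0 markers of the class among its 10 leading genes and macrophages as its second list. Of their clusters, that led by Fgr and H2-Eb1 had 49.0 CPM and that with Clec9a, the marker of cross-presenting cells, among its leading genes had 9.61 CPM, from 21 and 4 UMIs summed over libraries. In SAT at 2 months these were 13.2 and 0 CPM against 0 and 12.7 CPM, so the gap in the sums came from aged libraries, where the former had 139, 137 and 50.1 CPM in the 3 libraries with at least 20 nuclei, and no test was run. Plasmacytoid dendritic cells and NK cells had 4 UMIs of Cmklr1 each in all, too few to rank. In T cells, B cells and mature dendritic cells the means were 3.09 to 4.10 CPM.

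In adipocytes, Cmklr1 did not pass the test for age. All 4 SAT values were above those of VAT, and both young values were above both aged ones, but the log2 fold change was -0.54 ± 0.25 (SE; 95% interval -1.09 to 0.01, adjusted p = 0.173, edgeR). Among clusters, that led by Gm31517 and Adamts5 had 334 and 332 CPM at 2 months against 121 and 105 CPM at 24 months. For that led by Acaca and Acacb the values were 138 and 130.5 against 135 and 112 CPM. The clusters were not tested one by one. In macrophages the log2 fold change with age was 0.41 ± 0.50 (adjusted p = 0.798), and in blood endothelial nuclei 0.20 ± 0.84 (adjusted p = 0.966). The endothelial values of 52.5, 116, 98.5, 72.0, 85.4 and 10.6 CPM stood beside adipocyte RNA that would carry 66.8, 70.5, 28.4, 70.5, 49.2 and 8.24 CPM at the proportion seen in adipocytes.

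In FAPs, Cmklr1 had 25.7 and 16.6 CPM in SAT at 2 months (9 and 6 UMIs), 102 and 111 CPM in SAT at 24 months (8 and 36 UMIs), and 76.5 and 21.9 CPM in VAT (71 and 11 UMIs). The 2 age groups of SAT did not overlap, while the first VAT library lay between them and the second within the young range. The log2 fold change with age was 2.36 ± 0.68 (SE; 95% interval 0.85 to 3.87), and it did not pass (adjusted p = 0.337, edgeR). It was 2.34 with adjusted p = 0.0468 without the filter on low counts. Set directly against adipocytes, where the fold change was negative, the change in FAPs was higher by 2.95 ± 0.57 on the log2 scale (adjusted p = 0.0131, edgeR, the same added test as for Rarres2). This call was lost without the first SAT library at 24 months (3.07, adjusted p = 0.169) and without the second (2.70, adjusted p = 0.434).

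The summed adipocyte markers in FAPs were 733 and 444 CPM at 2 months and 538 and 1548 CPM at 24 months, and they would carry 14.9 and 8.28 CPM and 5.67 and 15.7 CPM of Cmklr1. Without FAP nuclei that held an Adipoq, Plin1 or Cidec UMI, Cmklr1 was 32.0 and 12.9 CPM at 2 months, 109 and 124 CPM at 24 months, and 78.9 and 20.6 CPM in VAT. The log2 fold change was then 2.43 (adjusted p = 0.396), and the difference from adipocytes was 3.06 (adjusted p = 0.0333). The part of adipocyte RNA in the Cmklr1 values of FAPs was not tested. Macrophage markers in FAPs summed to 106 and 141 CPM at 2 months (7 of 9 above 0 in each), 25.6 CPM (1 of 9) and 154 CPM (8 of 9) at 24 months, and 197 and 95.7 CPM in VAT, and their part in the result was not tested. By cluster, FAPs led by Lama2 and Col3a1 had 21.0 and 24.6 CPM at 2 months, 142 and 131 CPM at 24 months, and 94.2 and 35.8 CPM in VAT. FAPs led by Pi16 and Fbn1 had 35.6 and 10.1 CPM at 2 months (4 and 2 UMIs) and 40.7 CPM (3 UMIs) in the aged SAT library with at least 20 such nuclei. In VAT they had 55.9 and 10.8 CPM (24 and 3 UMIs).

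**Figure D4:**
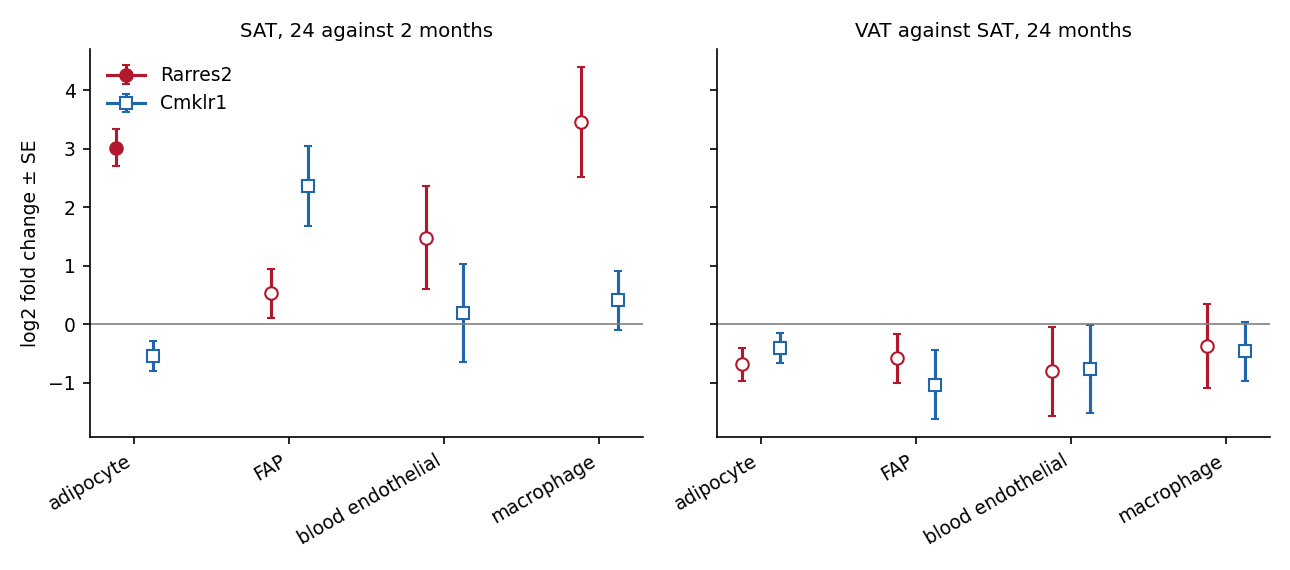
Log2 fold change ± SE of Rarres2 (circles) and Cmklr1 (squares) in 4 classes, for SAT at 24 against 2 months (left) and VAT against SAT at 24 months (right). Filled symbols passed adjusted p under 0.05 by edgeR: 1 did, Rarres2 with age in adipocytes, at 3.02 ± 0.32.

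Between depots at 24 months, Cmklr1 was likewise not called. The log2 fold change of VAT against SAT was -0.40 ± 0.26 in adipocytes (SE; adjusted p = 0.819), -1.03 ± 0.59 in FAPs (adjusted p = 0.846), -0.76 ± 0.75 in blood endothelial nuclei (adjusted p = 0.984) and -0.46 ± 0.50 in macrophages (adjusted p = 0.988). In FAPs it moved to -0.41 without the second VAT library and to -2.31 without the first. With single libraries left out it spanned -0.74 to -0.21 in adipocytes and -3.12 to -0.02 in blood endothelial nuclei.

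Ccrl2, the gene of the chemerin-presenting receptor, was scarce. Over all nuclei its level was 4.88 and 4.13 CPM in SAT at 2 months, 7.60 and 4.70 CPM in SAT at 24 months, and 1.03 and 5.59 CPM in VAT, from 11 to 57 UMIs per library. The first VAT library was the lowest and the other 5 lay in 1 range. Its log2 fold change with age was 0.62 ± 0.71 (SE; adjusted p = 0.816) and that with depot -0.95 ± 0.72 (adjusted p = 0.848, edgeR). In the sum of all immune nuclei the changes were -0.37 (adjusted p = 0.836) and 0.93 (adjusted p = 0.698), and in epithelial nuclei that with age was 0.50 (adjusted p = 0.865). In adipocytes, FAPs, macrophages and blood endothelial nuclei, Ccrl2 was under the filter on low counts and was not tested.

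Conventional dendritic cells had the highest mean of Ccrl2, 19.5 ± 21.7 CPM (SD, n = 6), but from 10 UMIs in all, and 0 to 3 UMIs per library. The first VAT library, with 62.1 CPM from 2 UMIs in 23 nuclei, carried much of this mean, which was 11 CPM without it. All 10 were in the cluster led by Fgr and H2-Eb1 (249 nuclei, 23.3 CPM), and 0 were counted in the 216 nuclei of the cluster with Clec9a among its leading genes. The former had 0 markers of the conventional dendritic list among its 10 leading genes, against 2 in the latter, and its second list was that of macrophages. Epithelial nuclei followed with a mean of 9.22 CPM (25 UMIs), or 5.70 CPM without the second VAT library, and the paired log2 difference of these 2 classes was 0.14 ± 0.79 (SD, n = 5; exact permutation p = 0.750). Mature dendritic cells, the migratory form marked by Fscn1, had 12.1 and 15.2 CPM in SAT at 2 months and 5.74 and 2.25 CPM at 24 months, from 8, 20, 3 and 1 UMIs. Adipocytes were lowest among the classes with at least 20 nuclei in 5 or more libraries, with 11 UMIs in 18005298 (0.611 CPM). Adjusted p was 0.938 for each pair of neighbours in the order of Ccrl2 levels.

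The largest single source of Ccrl2 UMIs was a cluster led by Itprid1, Gpc6 and Fcgbp, with Csn3, Ltf and Wfdc18 also among its leading genes. Its highest list was the epithelial one, with 7 markers raised and a mean log2 difference of 2.07. It was left unnamed because its leading genes held more markers of another list, so the epithelial class above leaves it out. This cluster held 53 of the 252 UMIs in 937 nuclei, 24.9 CPM in all. By library it had 9.56 and 3.15 CPM in SAT at 2 months, 34.2 and 30.9 CPM in SAT at 24 months, and 36.0 CPM in the first VAT library, where it held 21 nuclei. These rest on 3 and 1 UMIs, 21 and 25 UMIs, and 1 UMI, the last under the level of 3 counts. The 2 aged SAT libraries lay above the young ones, and no test was run on this cluster.

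The genes of the pathway were taken from a list of 50 that includes Rarres2, Cmklr1 and Ccrl2, of which 48 had a row in the count tables, with the proteases that process chemerin, the signalling proteins under its receptors, the regulators of Rarres2, the retinoic acid response and the atypical chemokine receptors. In adipocytes 31 were tested, and 12 changed with age, 7 upward and 5 downward, against 13.9% of all genes. Rarres2 is 1 of the 7, and without the 3 genes 29 were tested and 6 changed upward and 5 downward. The median log2 fold change of those tested was 0.14, and that of all genes -0.00. The list was chosen with earlier results of these data known, and its count is a description. The count fell to 6 without the first and to 5 without the second SAT library at 2 months.

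Among signalling genes, Gnai1, an inhibitory G protein subunit, rose from 115 and 86.2 CPM at 2 months to 530.1 and 556 CPM at 24 months (log2 fold change 2.58, adjusted p = 0.000185, edgeR). Rock2, a kinase of the RhoA pathway, rose from 439 and 385 to 1265 and 1073 CPM, by 1.67 on the log2 scale. Arrb1, which encodes beta-arrestin 1, rose from 27.5 and 40.3 to 70.4 and 80.5 CPM, by 1.35. Of the regulators of Rarres2, Pparg, the master regulator of adipocytes, rose from 1378 and 1354 to 3368 and 2304 CPM (1.22), and its partner Rxra fell from 70.1 and 77.2 to 31.1 and 35.9 CPM (-0.96). In both cases the 2 ages did not overlap.

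Of the genes of the retinoic acid response, Aldh1a1, whose product makes retinoic acid, rose from 531 and 243 to 1271 and 964 CPM (1.68), and Dhrs3, which reduces retinal, rose from 108 and 115 to 147 and 251 CPM (1.00). Of the proteases, Prtn3, neutrophil proteinase 3, fell from 75.0 and 86.2 to 21.4 and 14.6 CPM (-2.05), and Ctss, cathepsin S, from 21.6 and 42.5 to 6.90 and 9.85 CPM (-1.68). The 9 macrophage markers summed to 95.5 and 119.7 CPM in these adipocyte nuclei at 2 months and to 26.2 and 91.8 CPM at 24 months (8 and 9 of 9 above 0), and the part of macrophage RNA in the fall of Ctss was not tested. The scavenger receptor Ackr4 fell from 6.47 and 10.1 to 0 and 0.730 CPM, of which the aged values are at or near the level of 3 counts, so that no fold is given.

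With depot in adipocytes, and with age or depot in FAPs (34 tested), macrophages (25 tested) and blood endothelial nuclei (25 tested), 0 genes of the list were called by edgeR. The third receptor, Gpr1, had its highest class mean in FAPs, with 28.5, 30.5, 38.4, 33.8, 24.8 and 12 CPM there and a log2 fold change with age of 0.28 ± 0.70 (SE; adjusted p = 0.911). Among the 4 classes, FAPs had the most Plat, Plau and Ctsk, protease genes of the list, with means of 277, 228 and 159.6 CPM. FAPs also had the most Ctsl, cathepsin L, with a mean of 427 CPM, and macrophages had the most Ctss, with a mean of 875 CPM.

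By their pattern across 15 named classes (Pearson's r of class means on log2(CPM + 10) over 14359 genes, as a description), the genes most like Rarres2 were the matrix gene Efemp1 (r = 0.96), Map1a (0.95), Gpx8 (0.94), Ogn (0.93) and Tmeff2 (0.92). Those most like Cmklr1 were Agmo (0.95), Nr1h3 (0.93), which encodes the sterol receptor LXR-alpha, Gda (0.89), Cd302 (0.88) and Fam214b (0.88). For Ccrl2 they were Rtl5 (0.90), Fuca1 (0.84), Stard3nl (0.83), Snx1 (0.83) and Gm13373 (0.83). The classes of a library share its depth and its free RNA, and the values for Ccrl2 rest on few UMIs.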

How the data were processed

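The deposited files hold, for each of the 6 libraries, a table of UMI counts per gene and nucleus barcode, which the authors made with Celescope against GRCm39 from nuclei captured with the Singleron GEXSCOPE kit. The Celescope version, the annotation release and the use of strand are not given in the sources used here. One label names 10x Genomics instead, and all libraries carry the same date. All values reported are computed from these counts. The 3 genes, the gene list and the tests were chosen with earlier results of these data known.

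Nuclei with more than 500 genes, more than 1000 UMIs and under 15% mitochondrial UMIs were kept. These are the thresholds the study states, but the numbers of nuclei they leave here differ from those it gives, and the reason was not found. Median depth was 1380 to 1878 UMIs per nucleus, and intervals and limits cover counting error only. The 1000 most variable genes, without Rarres2, Cmklr1 and Ccrl2, gave 30 principal components, which were corrected for library with an implementation of Harmony and clustered with Leiden (scanpy 1.11.5, leidenalg 0.10.2; 20 neighbours, resolution 2.0, immune nuclei again at 1.0). A cluster was named where at least 3 markers of a list exceeded the rest by 2-fold and their mean log2 difference was at least 1.0, unless its 10 leading genes contradicted the name, and a name was kept in a library where its nuclei held UMIs of at least 3 markers. This naming rule was revised after the clusters had been seen. Scrublet's automatic threshold marked 0.121% to 0.562% of nuclei and did not work in 5 libraries, so doublets stayed in, and the alternative removed up to 5.99% of nuclei per library, the highest 6% of scores being the target.

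Counts were summed per library and class, where a library held at least 20 nuclei, and tested with edgeR 4.0.16 (TMM, filterByExpr, quasi-likelihood test, 3 groups in 1 fit, two-sided) in R 4.3.3, with Benjamini-Hochberg adjustment over all genes of a class and contrast and calls at adjusted p under 0.05. With 2 libraries against 2, an exact permutation test of a single gene could not reach that threshold. CPM is the UMIs of a gene per 1000000 UMIs of the class in that library. Neighbouring class levels were compared by exact sign-flip permutation (scipy 1.17.1). The difference between FAPs and adipocytes was tested as a class by group term with the library as a block. Named genes are the 3 genes in every class, genes of the list that passed the test or were the most abundant of their role, and the 5 genes most like each in class pattern. The values of 1 called gene of the list are not reported here. Scripts were tested on simulated counts. Alternatives were DESeq2 1.42.0, library-size scaling, no count filter, the compared groups alone, the replicate number as a block, each library left out, doublets removed, a filter of 1500 UMIs and 5% mitochondrial UMIs, and classes from the highest marker list.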

Additional observations from a re-analysis of the deposited data

Results flagged for a closer look

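For Rarres2 and Cmklr1 the change with age in SAT differed between FAPs and adipocytes, by a test of the class by age term that was added after seeing the data (edgeR, 11930 genes tested, 106 called). For Rarres2 the change in FAPs minus that in adipocytes was -2.51 ± 0.45 on the log2 scale (SE; adjusted p = 0.00894), from levels of 374 and 299.6 against 435 and 517 CPM in FAPs and 20.5 and 14.5 against 101 and 161 CPM in adipocytes. For Cmklr1 it was 2.95 ± 0.57 (SE; adjusted p = 0.0131), from 25.7 and 16.6 against 102 and 111 CPM in FAPs and 244 and 214 against 146 and 137 CPM in adipocytes. The FAP counts of Cmklr1 are small, 6 to 36 UMIs per SAT library. Both calls were lost when either aged SAT library was left out, with adjusted p of 0.130 and 0.245 for Rarres2 and 0.169 and 0.434 for Cmklr1.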

How the results depend on the processing

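The rise of Rarres2 with age in adipocytes kept its direction and its call under every alternative run, with log2 fold changes of 2.72 to 3.37 when single libraries were left out. Among the results that answer a comparison, 163 alternative values kept their direction and their side of the threshold, 6 turned sign, 4 lost the call, 3 values without a test moved and 1 gained a call. Without the filter on low counts, Cmklr1 with age in FAPs passed the test at 2.34 (adjusted p = 0.0468). Thinning to 1000 UMIs moved the mean share of FAP nuclei with a Rarres2 UMI from 36.1% to 26.4%. The level of Cmklr1 in macrophages minus adipocytes turned to -0.41 under TMM-scaled CPM and spanned -0.14 to 0.16 when libraries were left out. Ccrl2 in conventional dendritic cells minus epithelial nuclei turned to -0.27 with classes from the highest marker list and spanned -0.09 to 0.38. Cmklr1 with age in blood endothelial nuclei turned to -0.04 without TMM. The cause was not tested for any of these.

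When single libraries were left out, the change in FAPs minus that in adipocytes was -2.69 to -2.38 for Rarres2 and 2.70 to 3.10 for Cmklr1, and the gene list had 5 to 10 calls against 12. Changes that did not pass also turned sign: Cmklr1 with age in blood endothelial nuclei (-0.07 to 0.87) and in macrophages (-0.50 to 0.86), Rarres2 with depot in blood endothelial nuclei (-1.91 to 0.61) and in macrophages (-1.31 to 1.03), and Cmklr1 with depot in macrophages (-1.17 to 0.41).

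Without TMM the median log2 change with age of all adipocyte genes shifted to -0.17, and 631 genes were called upward and 1249 downward against 847 and 950. Rarres2 and Cmklr1 kept their signs there. DESeq2 called 1346 of the adipocyte genes with age against 1797, 33 with depot against 18, and 47 endothelial genes with age against 3 (18 without TMM). In macrophages with depot, DESeq2 and the fit without TMM each called 4 against 2.

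The labels give each group replicate numbers 1 and 2, and same-numbered libraries did not deviate together (correlations of -0.48 to 0.08). With the replicate block, Rarres2 with age in adipocytes was 3.00 (adjusted p = 6.21e-05), and adipocyte genes called were 2058 with age and 30 with depot. With the numbers crossed, as chosen after seeing the data, these counts were 1592 and 12, and 2 and 7 genes were called with age and depot in FAPs.

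The stricter nuclei filter left under 20 nuclei in a library for FAPs and blood endothelial nuclei, so their age contrast, for which both libraries of both groups were required, was not run, and in the fit of 2 groups alone Rarres2 in macrophages was under the count filter. Depth limits Ccrl2, with 252 UMIs in all, and Cmklr1 in FAPs.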

Other observations

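Clusters not described above also carried Rarres2. A cluster led by Pcdh15 and Csmd1 was left unnamed with the marker lists used, and Ccl21a, Cxcl13, Cr2 and Ccl19 were also among its leading genes. It had 126 and 153 CPM in SAT at 2 months, 123 and 168 CPM in SAT at 24 months, and 247 and 108 CPM in VAT. Each of these values was above that of the adipocytes of the same library. The cluster led by Itprid1, Gpc6 and Fcgbp, which held the most Ccrl2, had 3.19 and 6.29 CPM of Rarres2 in SAT at 2 months and 3.26 and 8.66 CPM in SAT at 24 months, but 1727 CPM in the first VAT library, where 21 nuclei held 48 UMIs. Epithelial nuclei had 1.33, 1.25, 5.36 and 7.04 CPM of Rarres2 in the 4 SAT libraries. They had 169 CPM in the second VAT library, which held the most ovary or oviduct and multiciliated nuclei. In epithelial nuclei the log2 fold change with age was 2.15 ± 0.92 (SE; adjusted p = 0.234, edgeR), and the 2 unnamed clusters were not tested.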
